A study of Mus musculus with 16 samples.

Results

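Mitochondrial genome transcripts are the RNAs that mitochondria copy from their own small circular chromosome. The 10 genes described here were chosen by symbol from a table of 52338 genes, and all 10 passed the filter on low counts that left 17731 genes for testing. They are mt-Nd1, mt-Nd2, mt-Nd4, mt-Nd5 and mt-Nd6 of complex I, mt-Cytb of complex III, mt-Co1, mt-Co2 and mt-Co3 of complex IV, and mt-Atp6 of complex V. RNA was sequenced from frozen, powdered kidneys of C57BL6 mice on a high-fat diet, taken 15 days after treatment with FAN or vehicle. What FAN stands for is not written out in the labels, and the columns of the table carry the word folic. The 4 groups of 4 libraries were FAN with time-restricted feeding, FAN with ad libitum feeding, vehicle with time-restricted feeding and vehicle with ad libitum feeding. The kidneys of a group are listed as separate samples, with nothing further on animals, so the p-values measure the spread between these samples. In RNA of a whole organ, fewer cells of a type and less RNA per cell cannot be told apart.

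Each mitochondrion carries copies of this chromosome, and its protein genes all encode subunits of the respiratory chain or of ATP synthase. Both strands are transcribed as long precursors by a dedicated polymerase, and the transfer RNAs between the protein genes are cut out to release the messages. Most of the messages are then given a short poly(A) tail, which in several of them also completes the stop codon. The kidney's proximal tubule reabsorbs most of the filtered solute and is among the tissue segments richest in mitochondria, so these RNAs are abundant in kidney libraries.

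All 10 genes lie on the mitochondrial chromosome, and 9 are read from its plus strand. The exception is mt-Nd6, read from the minus strand at chrM:13552-14070. Libraries were made with a poly(A) kit, and the ends of the reading frames are shown for 3 messages whose stop depends on the tail and for mt-Nd6, from the GENCODE M21 transcripts on the GRCm38 build. Each line gives the last 30 bases of the gene with its last codon in capitals, at chrM:15259-15288 for mt-Cytb, chrM:11515-11544 for mt-Nd4, chrM:9361-9390 for mt-Co3 and chrM:13552-13581 for mt-Nd6.
mt-Cytb: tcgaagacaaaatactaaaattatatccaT
mt-Nd4: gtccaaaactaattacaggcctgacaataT
mt-Co3: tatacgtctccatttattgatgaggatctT
mt-Nd6: tttattattatcgagattactcgagatTAA
In mt-Cytb, mt-Nd4 and mt-Co3 the last codon is a lone T, which the tail completes to a stop. The mt-Nd6 gene, on the opposite strand, ends in a full stop codon, and its message is known in human cells to lack a stable tail and to run on past the stop. A full stop codon was also found in the 6 genes not shown.

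Some of these sequences also exist in the nuclear genome, and this bears on what the counts of 3 genes can show. The GRCm38 build holds a block of mitochondrial sequence on chromosome 1, minus strand, in which annotated pseudogenes match mt-Co2 over 681 bases (Gm28661), mt-Atp6 over 678 bases (Gm10925), mt-Co3 over 783 bases (Gm28437) and the first 876 bases of mt-Nd4 (Gm28439), all at 100% identity. The last 483 bases of mt-Co1 are matched at 99.8% by Gm29216 in the same block. A second copy of mt-Co1, Gm13340 on chromosome 2, covers all 1545 bases at 97.6% identity. The first 60 bases of mt-Co2 (chrM:7013-7072, plus strand) and the same window of its copy (chr1:24615506-24615565, minus strand) show a copy that reads cannot be told apart from. Bases 460 to 519 of mt-Co1 (chrM:5787-5846, plus strand) are shown beside Gm13340 (chr2:22589129-22589188, minus strand). This window was picked as the 60 bases with the most differences. Gm13340 has 37 mismatches over the 1545 bases, so other stretches can hold fewer and reads there may not be told apart. Capitals mark bases of the copy that differ from the mitochondrial gene.
mt-Co2: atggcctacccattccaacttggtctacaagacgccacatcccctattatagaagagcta
Gm28661: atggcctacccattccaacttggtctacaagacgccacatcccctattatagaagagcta
mt-Co1: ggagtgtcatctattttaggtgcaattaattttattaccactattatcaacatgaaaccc
Gm13340: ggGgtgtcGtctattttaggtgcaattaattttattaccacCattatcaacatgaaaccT
The mt-Co2 window has 0 differences and the mt-Co1 window has 4.

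Raw counts followed these matches. mt-Co2 had 88 to 514 counts per library, mt-Co3 52 to 395 and mt-Atp6 36 to 239, while the lowest count of any of the other 7 genes in any library was 57504, for mt-Nd6. Those 3 genes are the ones matched over nearly their whole length by an identical nuclear copy, and their copies held 118 to 1367 counts per library. How reads that fit several places were handled is not given in the sources used here, so the levels of mt-Co2, mt-Co3 and mt-Atp6 cannot be set against those of the other genes. Their changes between groups are given below with this limit.

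**Figure D1:**
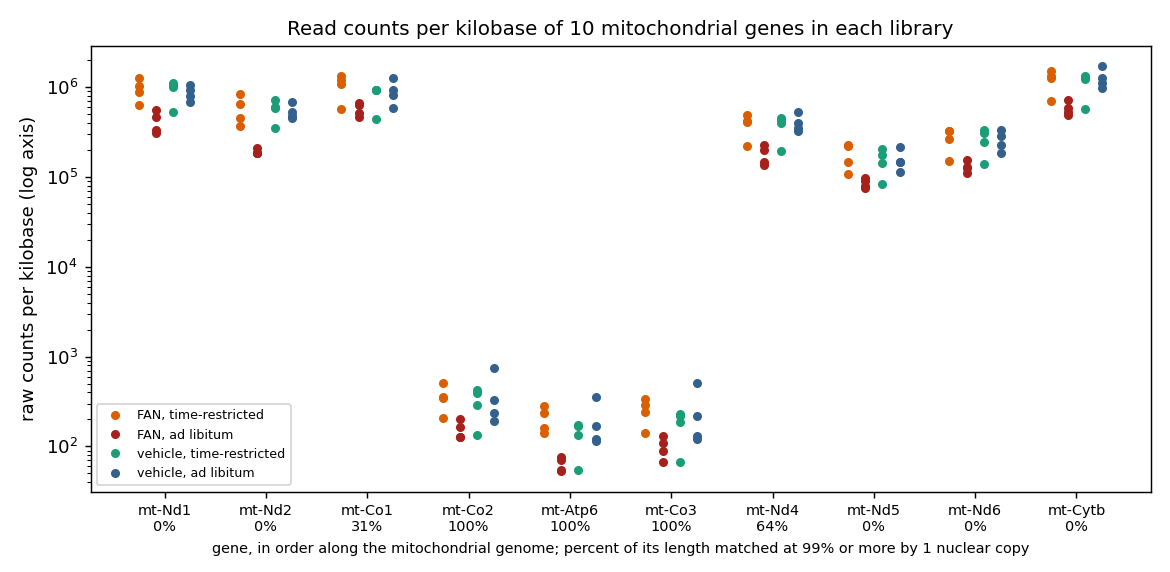
Raw counts per kilobase (log axis) of each gene in each of the 16 libraries, in gene order along the mitochondrial genome, with the percent of each gene matched at 99% or more by a nuclear copy under its name. Each point is a library, coloured by group, and mt-Co2, mt-Atp6 and mt-Co3 lie far below the other 7 genes in every library.

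Total counts ranged from 12450812 to 33976660 per library. The 10 genes together took 25.2%, 25.2%, 20.8% and 26.2% of all counts in FAN time-restricted libraries 6, 10, 11 and 12, and 7.18%, 6.85%, 14.4% and 11.8% in FAN ad libitum libraries 6, 7, 10 and 12. Vehicle time-restricted libraries 1 to 4 gave 20.7%, 17.8%, 20.5% and 19.2%, and vehicle ad libitum libraries 1 to 4 gave 20.5%, 17.01%, 20.2% and 20.7%. Every FAN ad libitum library was below every other library, and the means were 24.3% ± 2.42 in FAN time-restricted, 10.05% ± 3.66 in FAN ad libitum, 19.6% ± 1.34 in vehicle time-restricted and 19.6% ± 1.73 in vehicle ad libitum kidneys (SD, n = 4 each). The lowest FAN time-restricted library, at 20.8%, lay just above the highest vehicle time-restricted library, at 20.7%.

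Some libraries stood apart from their group. The column names carry numbers after the letter S, and what these stand for is not given in the labels. FAN ad libitum 6 and 7, with low S numbers, had lower shares than FAN ad libitum 10 and 12, with S numbers of 300 and above. Among the low S numbers, the only FAN time-restricted library had a share of 25.2%, against 6.85% and 7.18% in FAN ad libitum. Among S numbers of 300 and above, the shares were 20.8% to 26.2% in FAN time-restricted and 11.8% to 14.4% in FAN ad libitum libraries, so the feeding difference was present in both classes and smaller in the second. S numbers of 300 and above were found in 3 of 4 FAN time-restricted and 2 of 4 FAN ad libitum libraries and in 0 vehicle libraries, and an intermediate class was found in vehicle libraries alone, so FAN against vehicle is partly confounded with the S numbers. Among low S numbers alone, with 2 libraries against 2, all 10 genes were still lower in FAN than in vehicle under ad libitum feeding (median log2 change -2.43, adjusted p under 0.05 in 10 of 10). Vehicle ad libitum 1 stood apart for ribosomal RNA, described with the other mitochondrial rows. TMM scaling factors were 1.32 to 1.53 in FAN ad libitum and 0.816 to 0.975 in all other libraries, and the levels below are counts scaled to library size with these factors (CPM).

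Between genes, levels are set side by side per kilobase only where no near-identical copy was found among annotated transcripts. This leaves mt-Cytb, mt-Nd1, mt-Nd2, mt-Nd6 and mt-Nd5. Copies of lower identity match mt-Cytb (Gm11410, 92.9%), mt-Nd2 (Gm13339, 96.7%), mt-Nd6 (Gm11408, 93.6%) and mt-Nd5 (Gm4076, 95.2%, and Gm11407, 92.4%) in whole or in part. Whether these took or gave reads was not tested, and unannotated copies were not searched for. In vehicle ad libitum kidneys mt-Cytb, the core subunit of complex III, had 54000 ± 7501 CPM per kilobase and mt-Nd1 had 37477 ± 4328 (SD, n = 4). mt-Nd2 had 23146 ± 4039 and mt-Nd5 6637 ± 955 CPM per kilobase, in falling order. mt-Nd6, with 11006 ± 680 CPM per kilobase, is not placed in this order, since the libraries were made with a poly(A) kit. Its message is known in human cells to lack a stable tail, and whether the counting used strand is not given. mt-Co1, with 37945 ± 4437, and mt-Nd4, with 17210 ± 2643 CPM per kilobase of full length, are not placed in this order, since 31.3% of mt-Co1 and 63.6% of mt-Nd4 is matched by near-identical copies. Changes of a gene between groups do not rest on its length.

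Across the 4 groups the genes moved as a block: in FAN kidneys fed ad libitum all 10 were lower than in vehicle kidneys fed ad libitum, and in FAN kidneys with time-restricted feeding all 10 were higher than in FAN kidneys fed ad libitum. None passed the test in FAN against vehicle under time-restricted feeding, or between the feeding regimens in vehicle kidneys. Tests are edgeR's quasi-likelihood test with Benjamini-Hochberg adjustment over all 17731 genes, and a gene passed at an adjusted p under 0.05. The values follow by complex.

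**Figure D2:**
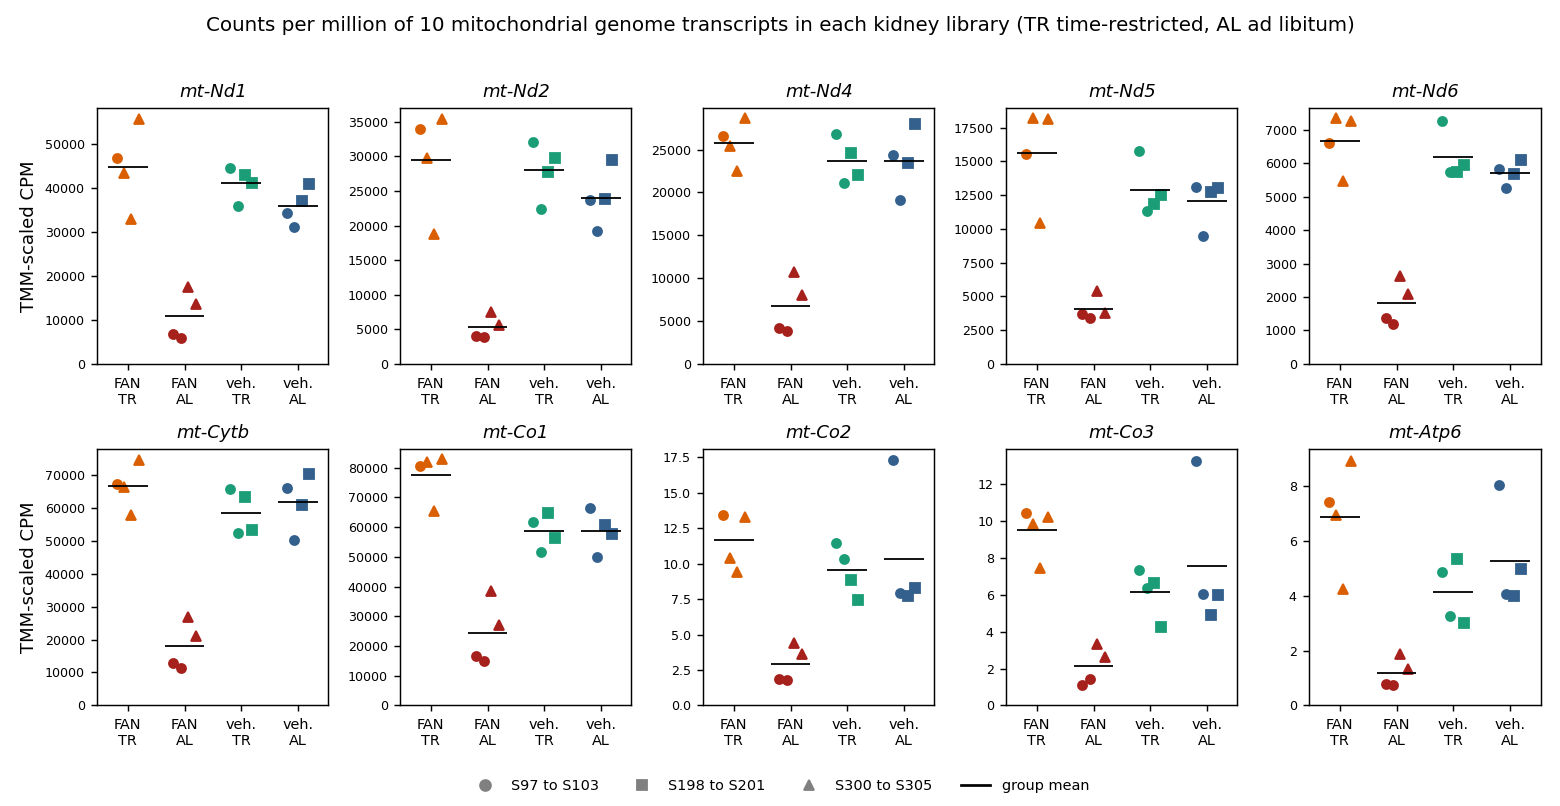
TMM-scaled CPM of the 10 genes in each library, with FAN before vehicle and time-restricted (TR) before ad libitum (AL) on the horizontal axis. Points are libraries, shapes give the S numbers in the column names, and bars are group means. In every panel the 4 FAN ad libitum libraries lie lowest, without overlap with the other groups.

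Complex I, the entry point of electrons from NADH, takes the core subunits of its membrane arm from the mitochondrial genome. Its subunit mt-Nd1, at chrM:2751-3707 next to the quinone-binding site, had 46767, 43376, 32946 and 55813 CPM in FAN time-restricted libraries and 6722, 6004, 17532 and 13618 CPM in FAN ad libitum libraries. In vehicle libraries it had 44686, 35870, 43086 and 41141 CPM with time-restricted and 34323, 31184, 37001 and 40953 CPM with ad libitum feeding. The FAN ad libitum libraries were the lowest 4, while the other 3 groups overlapped. The log2 change in FAN against vehicle was -1.71 ± 0.29 (SE) under ad libitum feeding (adjusted p = 5.30e-05), and that of time-restricted over ad libitum feeding in FAN was 2.03 ± 0.29 (adjusted p = 4.96e-05).

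mt-Nd2, at chrM:3914-4951, encodes an antiporter-like subunit of the proton-pumping arm and showed the lowest FAN ad libitum level of the well-counted genes relative to vehicle. It had 33960, 29806, 18775 and 35450 CPM in FAN time-restricted libraries and 4040, 3953, 7521 and 5652 CPM in FAN ad libitum libraries. Vehicle libraries had 32045, 22413, 27770 and 29823 CPM with time-restricted and 23652, 19182, 23846 and 29420 CPM with ad libitum feeding. FAN time-restricted 11 was low in its group, below all vehicle libraries, and still above every FAN ad libitum library. The log2 change was -2.18 ± 0.25 in FAN against vehicle under ad libitum feeding (adjusted p = 6.43e-07) and 2.48 ± 0.25 with time-restricted over ad libitum feeding in FAN (adjusted p = 1.38e-06).

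mt-Nd4 (chrM:10167-11544) and mt-Nd5 (chrM:11742-13565) encode the other large antiporter-like subunits. mt-Nd4 had 22461 to 28627 CPM in FAN time-restricted, 3864 to 10774 in FAN ad libitum, 21119 to 26799 in vehicle time-restricted and 19142 to 28007 in vehicle ad libitum libraries. mt-Nd5 had 15587, 18231, 10429 and 18153 CPM in FAN time-restricted libraries and 3728, 3425, 5409 and 3738 CPM in FAN ad libitum libraries. Here FAN ad libitum 6, 7 and 12 were alike and library 10 stood above them, unlike mt-Nd4, where libraries 10 and 12 were both well above 6 and 7. Under ad libitum feeding the log2 change in FAN against vehicle was -1.82 ± 0.27 for mt-Nd4 (adjusted p = 1.33e-05) and -1.57 ± 0.21 for mt-Nd5 (adjusted p = 4.37e-06). Time-restricted over ad libitum feeding in FAN gave 1.94 ± 0.27 for mt-Nd4 (adjusted p = 3.73e-05) and 1.94 ± 0.21 for mt-Nd5 (adjusted p = 3.15e-06).

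mt-Nd6, the only one of the 10 read from the opposite strand, followed the others. It had 6607, 7344, 5454 and 7268 CPM in FAN time-restricted libraries and 1370, 1179, 2640 and 2090 CPM in FAN ad libitum libraries. Its vehicle libraries spanned 5732 to 7269 CPM with time-restricted and 5251 to 6096 CPM with ad libitum feeding. The FAN ad libitum libraries lay below all of these, and FAN time-restricted libraries overlapped both vehicle groups. The log2 change was -1.65 ± 0.22 in FAN against vehicle under ad libitum feeding (adjusted p = 3.06e-06) and 1.87 ± 0.22 with time-restricted over ad libitum feeding in FAN (adjusted p = 5.25e-06). Its annotated end overlaps that of mt-Nd5 on the other strand. Whether the counting used strand is not given in the sources used here.

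mt-Cytb (chrM:14145-15288) encodes cytochrome b, the subunit of complex III that cycles quinone. It had 67271, 66227, 57665 and 74509 CPM in FAN time-restricted libraries and 12837, 11506, 26680 and 21040 CPM in FAN ad libitum libraries. Vehicle libraries had 65514, 52256, 63059 and 53193 CPM with time-restricted and 66052, 50300, 60634 and 70119 CPM with ad libitum feeding. The highest FAN ad libitum library, 10, was at 26680 CPM and the lowest of all the rest at 50300 CPM. The log2 change was -1.78 ± 0.24 in FAN against vehicle under ad libitum feeding (adjusted p = 5.63e-06) and 1.88 ± 0.25 with time-restricted over ad libitum feeding in FAN (adjusted p = 1.85e-05).

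Complex IV hands electrons to oxygen, and mt-Co1 (chrM:5328-6872) carries its catalytic centre. mt-Co1 had 80475, 81888, 65529 and 82769 CPM in FAN time-restricted libraries and 16789, 14894, 38547 and 26939 CPM in FAN ad libitum libraries. Vehicle libraries had 61793, 51520, 64906 and 56461 CPM with time-restricted and 66440, 49964, 60555 and 57543 CPM with ad libitum feeding. Its change was the smallest of the 10 under ad libitum feeding, with a log2 change of -1.27 ± 0.25 in FAN against vehicle (adjusted p = 0.000276) and of 1.68 ± 0.25 with time-restricted over ad libitum feeding in FAN (adjusted p = 8.68e-05). All 4 FAN time-restricted libraries were above all 4 vehicle time-restricted libraries, the lowest of the first group at 65529 and the highest of the second at 64906 CPM, but the log2 change of 0.40 ± 0.25 did not pass (adjusted p = 0.200).

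mt-Co2 (chrM:7013-7696), the subunit that receives electrons from cytochrome c, had 13.4, 10.4, 9.43 and 13.3 CPM in FAN time-restricted libraries and 1.84, 1.80, 4.42 and 3.61 CPM in FAN ad libitum libraries. It had 11.5, 10.3, 8.86 and 7.41 CPM in vehicle time-restricted libraries and 17.3, 7.92, 7.72 and 8.26 CPM in vehicle ad libitum libraries. The first vehicle ad libitum library was well above the rest of its group. mt-Co3 (chrM:8607-9390), a core subunit without metal centres, had 7.47 to 10.4 CPM in FAN time-restricted, 1.11 to 3.35 in FAN ad libitum, 4.24 to 7.32 in vehicle time-restricted and 4.89 to 13.3 in vehicle ad libitum libraries. The highest value was again vehicle ad libitum 1. In FAN against vehicle under ad libitum feeding the log2 change was -1.84 ± 0.31 for mt-Co2 (adjusted p = 4.83e-05) and -1.86 ± 0.34 for mt-Co3 (adjusted p = 0.000129). Without that library the changes were -1.47 (adjusted p = 0.000191) and -1.43 (adjusted p = 0.000610). Time-restricted over ad libitum feeding in FAN gave 2.01 ± 0.31 for mt-Co2 (adjusted p = 0.000103) and 2.18 ± 0.34 for mt-Co3 (adjusted p = 0.000130).

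mt-Atp6 (chrM:7927-8607) encodes the proton channel subunit of ATP synthase and had the fewest counts of the 10 genes. It had 7.39, 6.96, 4.24 and 8.92 CPM in FAN time-restricted libraries and 0.775, 0.738, 1.89 and 1.34 CPM in FAN ad libitum libraries. Vehicle libraries had 4.87, 3.261, 5.35 and 3.01 CPM with time-restricted and 8.03, 4.07, 3.98 and 4.98 CPM with ad libitum feeding. Its changes were among the largest, with a log2 change of -2.19 ± 0.33 in FAN against vehicle under ad libitum feeding (adjusted p = 1.84e-05) and 2.56 ± 0.34 with time-restricted over ad libitum feeding in FAN (adjusted p = 2.02e-05). Without vehicle ad libitum 1 the first of these was -1.90 (adjusted p = 9.64e-05).

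FAN was compared with vehicle under each feeding regimen. Under ad libitum feeding all 10 fell in FAN, with a median log2 change of -1.80 and a range of -2.19 to -1.27, where 60.7% of all genes tested passed, 28.6% lower and 32.1% higher, and the median of all genes was 0.06. All 10 were also lower without overlap between the groups, which held for 25.9% of all genes, while 29% were higher without overlap. Without FAN ad libitum 6 and 7, all 10 still fell, with a median of -1.41. Under time-restricted feeding 0 of 10 passed, where 43.5% of all genes tested passed, 24.5% higher and 19% lower. There 1 gene, mt-Atp6, had an unadjusted p under 0.05 (log2 change 0.72 ± 0.32, adjusted p = 0.0744), and DESeq2 called 0. The 10 log2 changes ran from 0.07 to 0.72, and the 95% intervals of the 7 well-counted genes reached from -0.47 at the lowest to 0.93 at the highest. The median of the 10 was 0.23, and it was -0.09 with the S numbers as a covariate, again with 0 of 10 passing, so its direction depends on that choice. In mt-Co1 and mt-Co3 the groups did not overlap, with FAN higher, as in 22.4% of all genes.

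The feeding regimen was compared within FAN and within vehicle kidneys. In FAN all 10 rose with time-restricted against ad libitum feeding, by a median log2 change of 1.97 and a range of 1.68 to 2.56, where 31.8% of all genes tested passed, 17.9% higher, and the median of all genes was -0.02. All 10 were higher without overlap, as were 15.7% of all genes. The rise held without FAN ad libitum 6 and 7 (10 of 10, median 1.53) and within the libraries with S numbers of 300 and above (10 of 10, median 1.51, with 3 libraries against 2). In vehicle kidneys 0 of 10 passed, with log2 changes of -0.35 to 0.22, and the percent of all genes tested that passed was also 0. None of the 10 was without overlap there. Of all genes, 2.85% were higher and 2% lower without overlap with time-restricted feeding. None of the 10 had an unadjusted p under 0.05 there and DESeq2 called 0 of them. Over all genes in that comparison, edgeR called 0, with 1143 at an unadjusted p under 0.05, and DESeq2 called 58.

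**Figure D3:**
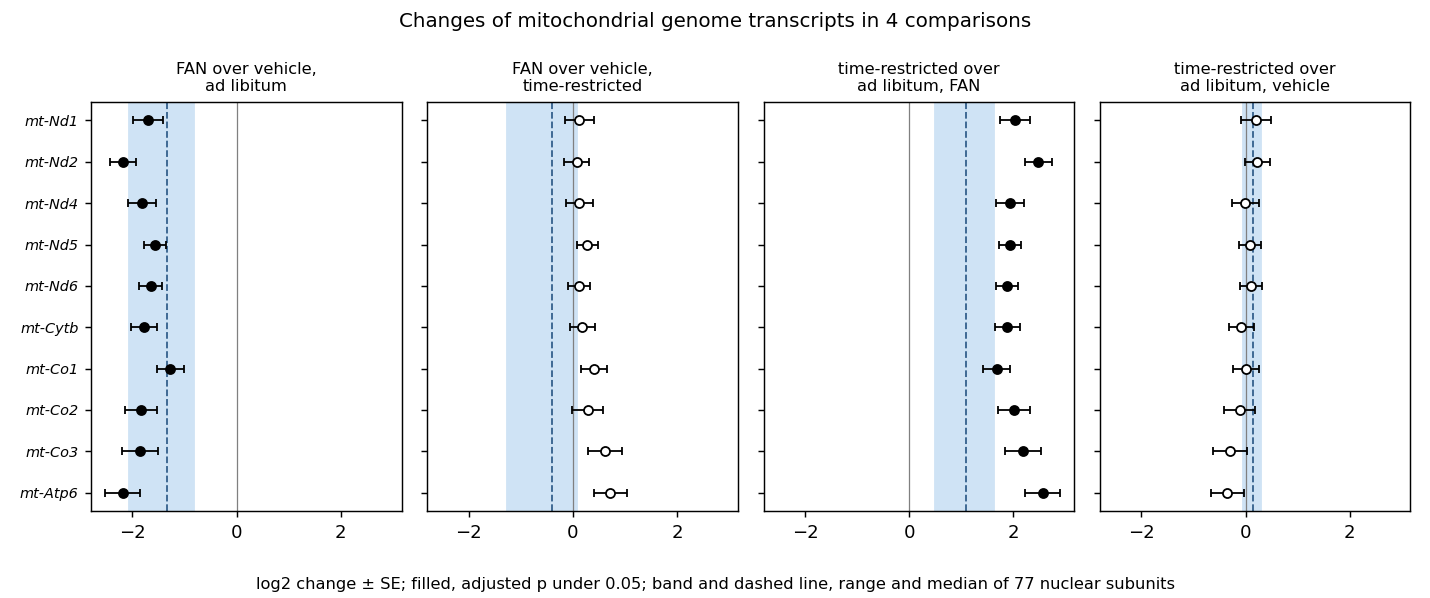
Log2 changes ± SE of the 10 genes in 4 comparisons, each named with the group on top of the fold change first. Filled points passed at an adjusted p under 0.05, and the band and dashed line give the range and median of 77 nuclear subunits of the same complexes. The genes lie left of 0 in FAN over vehicle with ad libitum feeding, right of 0 in time-restricted over ad libitum feeding in FAN, and near 0 in vehicle.

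The difference between the feeding effects was itself tested. The effect of time-restricted feeding in FAN minus that in vehicle was above 0 for all 10 genes, with log2 values of 1.68 (mt-Co1) to 2.91 (mt-Atp6) and adjusted p of 0.000412 to 0.00689, where 9.16% of all genes passed, 7.76% with a higher and 1.4% with a lower value in FAN. Of the well-counted genes mt-Nd2 had the largest difference, 2.26 ± 0.34 (adjusted p = 0.000412). Comparisons that share the FAN ad libitum libraries are not independent of each other.

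Library scaling cannot affect the mix of the 10 genes, which was also compared between groups. As a share of their summed counts, mt-Co1 took 29.03%, 30.1%, 30.7% and 27.4% in FAN time-restricted libraries, 33.8%, 33.2%, 35.3% and 33.2% in FAN ad libitum libraries, 24.3%, 25.7%, 26.9% and 25.5% in vehicle time-restricted libraries and 28.4%, 27.1%, 27.1% and 23.5% in vehicle ad libitum libraries. FAN ad libitum was highest, and the S numbers did not divide it. The difference between FAN and vehicle was 7.38 percentage points under ad libitum feeding (33.9% ± 0.997 and 26.5% ± 2.12, SD, n = 4 each) and 3.66 points under time-restricted feeding (29.3% ± 1.47 and 25.6% ± 1.06, SD, n = 4 each). Time-restricted over ad libitum feeding in FAN differed by -4.59 points. In each of these 3 comparisons the groups did not overlap and the exact two-sided permutation p was 0.0286, the smallest that the 70 assignments of 4 against 4 allow. It is not adjusted for the 40 such tests made, so no difference in share, here or below, counts as a call.

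mt-Nd2 moved the other way within the mix. It took 12.2%, 10.9%, 8.80% and 11.7% of the summed counts in FAN time-restricted libraries and 8.13%, 8.82%, 6.89% and 6.97% in FAN ad libitum libraries, against means of 12.2% ± 1.05 in vehicle time-restricted and 10.8% ± 0.834 in vehicle ad libitum libraries (SD, n = 4 each). FAN against vehicle under ad libitum feeding differed by -3.09 points (exact permutation p = 0.0286). The groups did not overlap. In the same comparison mt-Nd4 differed by -1.44 points and mt-Cytb by -2.33 points, each with the exact permutation p of 0.0286. In vehicle kidneys mt-Nd1 took 18.0% ± 0.43 with time-restricted and 16.2% ± 1.03 with ad libitum feeding, and mt-Cytb 25.5% ± 0.99 and 27.8% ± 0.74 (SD, n = 4 each), both without overlap (exact permutation p = 0.0286).

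The mix also varied within the FAN ad libitum group along the S numbers. There mt-Nd5 took 7.50% and 7.64% in libraries 6 and 7 and 4.96% and 4.61% in libraries 10 and 12, and mt-Nd1 took 13.5% and 13.4% against 16.1% and 16.8%. For both genes FAN ad libitum 6 and 7 lay outside the range of the other 14 libraries, on the high side for mt-Nd5 and on the low side for mt-Nd1. mt-Nd6 took between 2.38% and 2.86% in all 16 libraries. Over the 16 libraries, Pearson's r of log2 CPM between any pair of the 10 genes was 0.889 to 0.998, and after taking out the group means it was 0.499 to 0.992, highest for mt-Nd4 with mt-Cytb. These are descriptions over libraries that share their scaling.

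**Figure D4:**
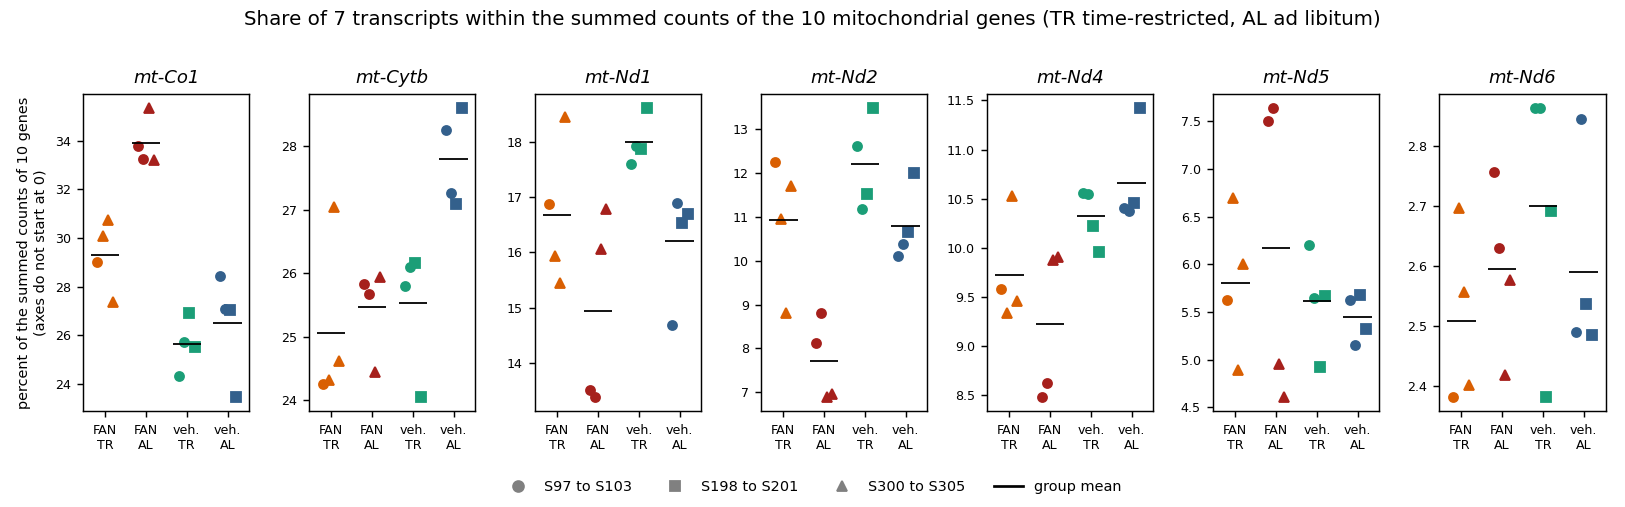
Percent of the summed counts of the 10 genes taken by each of the 7 well-counted genes, per library, with shapes for the S numbers and bars for group means. mt-Co1 is highest in FAN ad libitum libraries, the FAN ad libitum mean of mt-Nd2 is the lowest of the 4 groups with its libraries overlapping FAN time-restricted, and mt-Nd5 and mt-Nd1 split that group along its S numbers.

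The nuclear genome encodes the rest of the same complexes, and 77 such subunits were tested. For these and the lists that follow, the shares of all genes tested are the background. In FAN under ad libitum feeding 28.6% of all genes fell and 32.1% rose, and under time-restricted feeding 19% fell and 24.5% rose. With time-restricted over ad libitum feeding in FAN 17.9% rose and 13.9% fell. Under ad libitum feeding all 77 fell in FAN against vehicle, with a median log2 change of -1.33, beside -1.71 for the 7 well-counted mitochondrial genes. With time-restricted feeding 38 of the 77 fell in FAN against vehicle and 0 rose (median -0.40), beside a median of 0.12 and 0 of 7 calls for the mitochondrial genes. Time-restricted over ad libitum feeding in FAN gave 77 of 77 higher (median 1.10), beside 1.94. With library size alone 63 of the 77 fell, 30 fell and 56 rose in these 3 comparisons, so the counts depend on the scaling. The mean log2 CPM of the 7 mitochondrial genes minus that of the 77 nuclear subunits was 6.62 to 7.20 in FAN time-restricted, 5.84 to 6.39 in FAN ad libitum, 6.21 to 6.58 in vehicle time-restricted and 6.26 to 6.64 in vehicle ad libitum libraries. The FAN time-restricted libraries lay above the FAN ad libitum and the vehicle time-restricted libraries without overlap. They overlapped the vehicle ad libitum libraries, since FAN time-restricted 11 was the lowest at 6.62 and the highest vehicle ad libitum library was at 6.64.

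Markers of the proximal tubule moved with these genes in part. The summed CPM of 10 markers was 7773 to 9324 in FAN time-restricted, 2096 to 4056 in FAN ad libitum, 14651 to 16886 in vehicle time-restricted and 14110 to 16487 in vehicle ad libitum libraries. Of the 10 markers, 8 fell in FAN under each feeding regimen and 8 rose with time-restricted over ad libitum feeding in FAN, and none was at 0 in any library. With library size alone 8 fell under each regimen and 5 rose. In FAN time-restricted kidneys the markers were thus below both vehicle groups while the mean log2 CPM of the 7 mitochondrial genes overlapped that of both. Within FAN ad libitum the order was reversed, since libraries 6 and 7 had mean log2 CPM of 7.81 and 7.52 for the markers and 12.39 and 12.24 for the 7 mitochondrial genes, and libraries 10 and 12 had 7.26 and 6.60 for the markers and 13.44 and 13.02 for the mitochondrial genes. The part of cell makeup in the results was not tested.

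**Figure D5:**
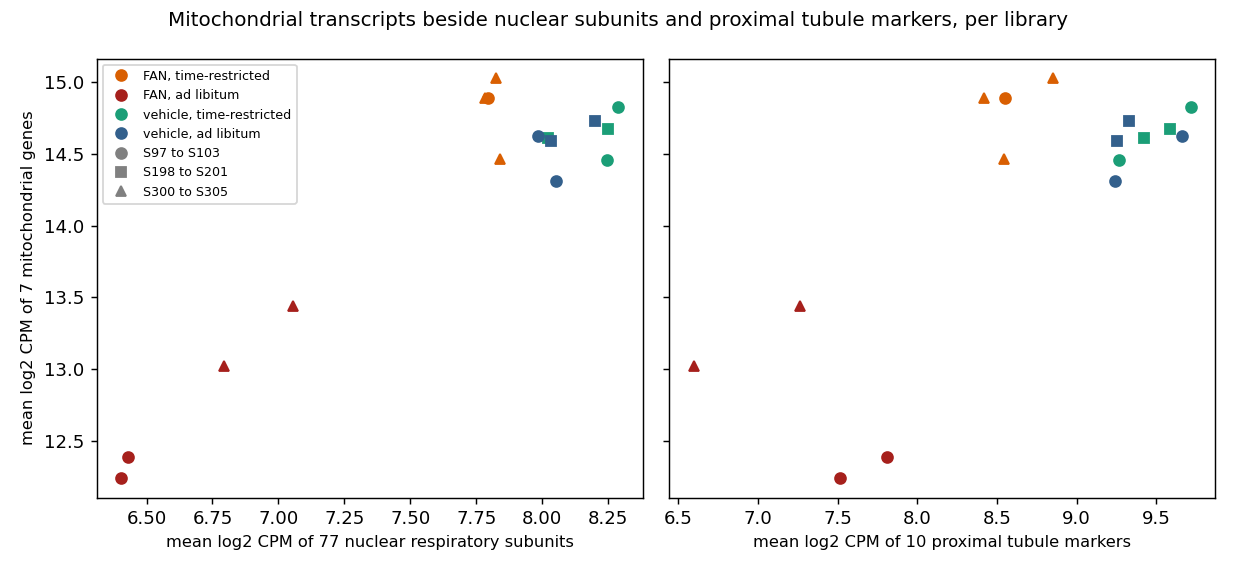
Mean log2 CPM of the 7 well-counted mitochondrial genes in each library against that of 77 nuclear respiratory subunits (left) and of 10 proximal tubule markers (right), coloured by group and shaped by S number. The FAN time-restricted libraries lie at mitochondrial levels of 14.5 to 15.0, beside vehicle libraries at 14.3 to 14.8, but to their left on both horizontal axes.

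Nuclear genes supply all the proteins that transcribe and process mitochondrial RNA. Of 11 genes of mitochondrial transcription, 8 fell in FAN under ad libitum feeding and 3 under time-restricted feeding, and 5 rose with time-restricted over ad libitum feeding in FAN. Tfam, which packages mitochondrial DNA and opens its promoters, had a log2 change of -0.59 ± 0.12 in FAN under ad libitum feeding (adjusted p = 0.000423), -0.17 ± 0.12 under time-restricted feeding (adjusted p = 0.280) and 0.59 ± 0.12 with time-restricted over ad libitum feeding in FAN (adjusted p = 0.00143). The polymerase gene Polrmt fell in FAN under both regimens, by 0.89 ± 0.19 (adjusted p = 0.000456) and 0.78 ± 0.19 (adjusted p = 0.00270) on the log2 scale, and time-restricted over ad libitum feeding in FAN gave 0.08 ± 0.19 (adjusted p = 0.788). Its level was 15.4 ± 0.736 CPM in FAN time-restricted, 14.6 ± 3.88 in FAN ad libitum, 26.4 ± 6.71 in vehicle time-restricted and 27.2 ± 3.40 in vehicle ad libitum kidneys (SD, n = 4 each), so both FAN groups were low. Mrpl12, a ribosomal protein that also binds the polymerase, had log2 changes of -1.56 ± 0.18 (adjusted p = 6.72e-07) in FAN under ad libitum feeding and 1.16 ± 0.18 (adjusted p = 0.000101) with time-restricted feeding in FAN. With library size alone, 2 of the 11 rose and 1 fell in FAN under ad libitum feeding, and 1 rose and 2 fell with time-restricted feeding in FAN.

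Of 20 genes that process or stabilise mitochondrial RNA, 14 fell in FAN under ad libitum feeding, 12 fell under time-restricted feeding and 11 rose with time-restricted over ad libitum feeding in FAN. Lrpprc, which holds polyadenylated mitochondrial messages stable, gave -0.88 ± 0.13 (adjusted p = 1.53e-05), -0.37 ± 0.13 (adjusted p = 0.0288) and 0.72 ± 0.13 (adjusted p = 0.000504) in these 3 comparisons. Hsd17b10, a subunit of the enzyme that trims transfer RNA ends out of the precursors, and Grsf1, an RNA granule protein, fell by 1.43 and 1.15 in FAN under ad libitum feeding on the log2 scale (adjusted p = 3.16e-08 and 2.67e-07). These directions rest on TMM. With library size alone the median of all genes moved to 0.76 in FAN against vehicle under ad libitum feeding and to -0.67 for the feeding comparison in FAN, and of the 20 processing genes 4 then fell and 6 rose in the first and 11 fell in the second, while all 10 mitochondrial genes kept their calls (medians -1.12 and 1.35).

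Of 4 genes of mitochondrial RNA decay, 3 fell in FAN under ad libitum feeding and 2 rose with time-restricted feeding in FAN (1 rose and 1 fell, and 1 rose and 3 fell, with library size alone). Of 11 translation factors, 9 fell in FAN under ad libitum feeding, 6 fell under time-restricted feeding and 5 rose with time-restricted feeding in FAN. With library size alone 2 rose and 3 fell, 4 fell, and 5 fell in the same comparisons. The elongation factor Tufm gave -1.40 ± 0.16 (adjusted p = 7.18e-07) in FAN under ad libitum feeding. Of 15 genes of mitochondrial DNA maintenance, 11 fell and 1 rose in FAN under ad libitum feeding, 5 fell under time-restricted feeding, and 5 rose and 1 fell with time-restricted feeding in FAN. With library size alone 5 rose and 2 fell, 1 fell, and 1 rose and 9 fell.

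Other genes of mitochondrial upkeep were followed as lists. Of 11 mitophagy genes, 7 fell in FAN under ad libitum feeding, 4 fell under time-restricted feeding and 6 rose with time-restricted feeding in FAN (5 rose and 3 fell, 1 rose and 2 fell, and 2 rose and 4 fell, with library size alone). Pink1, the kinase that marks damaged mitochondria, gave -1.72 ± 0.11 (adjusted p = 4.44e-10) and 1.25 ± 0.10 (adjusted p = 2.31e-07) in the first and last of these. Of 10 stress response genes, 2 rose and 5 fell in FAN under ad libitum feeding, and 3 rose and 1 fell with time-restricted feeding in FAN (5 rose and 3 fell, and 6 fell, with library size alone). Of 13 biogenesis regulators, 3 rose and 4 fell in FAN under ad libitum feeding (7 rose and 2 fell with library size alone). Of all genes, 32.1% rose and 28.6% fell there, so this list did not stand apart from them. Ppargc1a, the coactivator at the head of these regulators, did not pass in any of the comparisons within or between FAN groups. Its log2 change was -0.30 ± 0.22 (adjusted p = 0.248) in FAN under ad libitum feeding. Esrra, a nuclear receptor it works with, gave -1.27 ± 0.13 (adjusted p = 1.36e-07) there and 0.47 ± 0.13 with time-restricted over ad libitum feeding in FAN (adjusted p = 0.00886). Of 12 genes of the outer membrane, import and matrix, 11 fell in FAN under ad libitum feeding, 8 fell under time-restricted feeding and 9 rose with time-restricted over ad libitum feeding in FAN; with library size alone these counts were 3, 6 and 0. In that list the import receptor Tomm20 changed by 0.82 ± 0.14 (adjusted p = 0.000310) in the feeding comparison in FAN, and citrate synthase, Cs, by 0.20 ± 0.14 (adjusted p = 0.311).

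Antioxidant enzymes of the matrix followed the respiratory genes. All 6 fell in FAN under ad libitum feeding, 5 under time-restricted feeding, and all 6 rose with time-restricted over ad libitum feeding in FAN, with counts of 6, 4 and 4 with library size alone. The superoxide dismutase Sod2 had a log2 change of -1.73 in FAN under ad libitum feeding (adjusted p = 1.18e-09) and 1.10 in the feeding comparison in FAN (adjusted p = 1.84e-06). Of 8 genes that sense or signal mitochondrial nucleic acid, 7 rose in FAN under each regimen, with 1 lower under time-restricted feeding, and 4 fell with time-restricted feeding in FAN (8 with library size alone). Sting1, an adaptor of the cytosolic DNA response, gave 3.23 (adjusted p = 1.97e-08) and -0.94 (adjusted p = 0.00760) in the ad libitum and the feeding comparison. All 6 macrophage markers also rose in FAN under ad libitum feeding, and 5 of 6 under time-restricted feeding. Their part in the sensor counts was not tested.

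The mitochondrial chromosome has 37 rows in the table, of which 14 transfer RNA rows were at 0 in every library and 17 rows were tested. The ribosomal RNAs did not follow the messages in every group. How fully the poly(A) kit captured ribosomal RNA is not known here, so these counts need not follow its level in the tissue. mt-Rnr1, the small ribosomal RNA, had 2521, 2221, 2658 and 2560 CPM in FAN time-restricted libraries, 346, 266, 1417 and 1095 CPM in FAN ad libitum libraries, 1152, 1129, 1432 and 1207 CPM in vehicle time-restricted libraries and 11844, 989, 927 and 1757 CPM in vehicle ad libitum libraries. Vehicle ad libitum 1 stood far above all others, and apart from it the FAN time-restricted libraries were the highest. mt-Rnr2, the large ribosomal RNA, had 3132 to 3823 CPM in FAN time-restricted, 274 to 1714 in FAN ad libitum, 995 to 1383 in vehicle time-restricted and 836 to 14196 in vehicle ad libitum libraries.

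In FAN against vehicle under ad libitum feeding mt-Rnr1 and mt-Rnr2 passed with log2 changes of -2.31 ± 0.76 (adjusted p = 0.0174) and -2.35 ± 0.84 (adjusted p = 0.0272). Without vehicle ad libitum 1 they were -0.65 (adjusted p = 0.203) and -0.45 (adjusted p = 0.436), so these calls rest on that library. Time-restricted over ad libitum feeding in FAN gave 1.67 ± 0.75 (adjusted p = 0.104) and 1.95 ± 0.83 (adjusted p = 0.0905), and 1.68 (adjusted p = 0.00568) and 1.95 (adjusted p = 0.00466) without that library, whose spread enters the shared fit. FAN against vehicle under time-restricted feeding gave 1.56 ± 0.82 for mt-Rnr2 (adjusted p = 0.144), and 1.55 (adjusted p = 0.0115) without it. FAN time-restricted libraries were above all vehicle time-restricted libraries for both ribosomal RNAs.

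Among transfer RNA rows, mt-Tp had the most counts, 2317 to 8192 per library, and the next, mt-Tc, at most 30. The libraries were made with a poly(A) kit, and the strand setting of the counting is not given. Counts of mt-Tp therefore cannot be assigned to the transfer RNA itself. mt-Tp lies past the end of mt-Cytb on the minus strand. It had 319, 319, 235 and 347 CPM in FAN time-restricted libraries, 59.4, 47.5, 167 and 141 CPM in FAN ad libitum libraries, 170 to 232 CPM in vehicle time-restricted and 79.1 to 222 CPM in vehicle ad libitum libraries. It rose with time-restricted over ad libitum feeding in FAN (log2 change 1.56 ± 0.35, adjusted p = 0.00327). Unlike the 10 genes it did not pass in FAN against vehicle under ad libitum feeding (-0.60 ± 0.35, adjusted p = 0.148; -0.82, adjusted p = 0.0408, without vehicle ad libitum 1) or in the interaction (1.24 ± 0.49, adjusted p = 0.1301). The protein genes mt-Nd3, mt-Nd4l and mt-Atp8 were counted even less than mt-Co2, with at most 71, 17 and 85 counts in any library. All 3 passed in FAN against vehicle under ad libitum feeding and in the feeding comparison in FAN, in the direction of the 10 genes, mt-Nd3 with log2 changes of -2.51 ± 0.45 (adjusted p = 0.000112) and 2.97 ± 0.46 (adjusted p = 9.82e-05). These counts are near the floor. mt-Atp8 had 1 to 51 counts in FAN time-restricted and 1 to 5 in FAN ad libitum libraries, so the raw counts overlapped. Nuclear copies match mt-Nd3 at 99.7% (Gm28438) and mt-Nd4l at 100% (Gm10222) over nearly their whole length. The limit given for mt-Co2 thus holds for both. For mt-Atp8 no copy was found, but annotated transcripts alone were searched, so whether the limit holds for it is not known.

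Among 11241 genes outside the mitochondrial genome with a mean of at least 5 CPM, the 10 most like the mean of the 10 mitochondrial genes over the 16 libraries were ranked by Pearson's r of log2 CPM. The first 3 were nuclear copies of the same sequences: Gm13341, a copy of mt-Co2 (r = 0.987), Gm28439, a copy of mt-Nd4 (r = 0.985), and Gm13340, the copy of mt-Co1 shown above (r = 0.985). They match these genes at 95.9%, 100% and 97.6% identity, so reads of the mitochondrial messages may be counted there. Whether they were was not tested. Cox7c (r = 0.971) and Cox7a2 (r = 0.964), nuclear subunits of complex IV, and Apool (r = 0.963), of the inner membrane's cristae junctions, were also among the 10. The remaining 4 were Ndfip1 (r = 0.973), an adaptor of ubiquitin ligases, Sms (r = 0.972), which makes spermine, Sar1b (r = 0.970), a GTPase of secretory vesicles, and Cltrn (r = 0.966), a partner of amino acid transporters in the brush border. The likeness is a description over libraries of the same 4 groups.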

How the data were processed

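The values are raw read counts per Ensembl gene that the authors deposited as 1 table for the 16 libraries. The submitters' processing notes list the mm10 build, STAR 2.5.3a, FastQC 0.11.5 and edgeR 3.26.7 without saying what each did. The counting tool, its strand setting and its handling of reads with several matches are not given in the sources used here. FAN columns match a group but not a sample title and are named by their column number. All per-sample columns were used.

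Testing used edgeR 4.0.16 in R 4.3.3: filterByExpr with a minimum count of 10, TMM scaling, and 1 robust quasi-likelihood model of the 4 groups over all 16 libraries (71 rows have no symbol and stayed in by Ensembl identifier). The pipeline was tested on simulated data. DESeq2 1.42.0, other scaling, no filter, S numbers, a replicate block, leaving out libraries and adding the counts of nuclear copies were the alternatives. Mitochondrial transcripts were matched to GENCODE M21 transcripts (GRCm38) with blastn 2.17.0, keeping matches of at least 90% identity over 50 bases. Positions of mitochondrial genes in the table equal those of GENCODE. Shares within the 10 genes were compared by exact permutation over libraries; their summed share was given no test.

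No 2 libraries of a group agreed within sampling noise (chi-square per gene of at least 18.4). Depth was 12450812 to 33976660 counts per library. No molecular identifiers are described in the labels, so counting precision may be overstated. The genes, lists and tests were chosen with earlier results of these data known. Named besides the 10 genes are 5 other mitochondrial genes and the most counted transfer RNA, up to 3 genes with the smallest p per list, 7 regulators whatever their result (Tfam, Polrmt, Lrpprc, Ppargc1a, Esrra, Cs and Tomm20) and the 10 most like genes.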

Additional observations from a re-analysis of the deposited data

Results flagged for a closer look

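The effect of time-restricted feeding differed between FAN and vehicle kidneys for all 10 genes by the test of the difference itself. The log2 effect in FAN minus that in vehicle was 1.83 for mt-Nd1, 2.26 for mt-Nd2, 1.94 for mt-Nd4, 1.85 for mt-Nd5, 1.76 for mt-Nd6, 1.96 for mt-Cytb, 1.68 for mt-Co1, 2.12 for mt-Co2, 2.48 for mt-Co3 and 2.91 for mt-Atp6 (edgeR, adjusted p of 0.000412 to 0.00689).

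A library far from the other 3 of its group was found in 15 of 96 groups of values examined. Chance gives about 1 in 20 for a single group of values. The 96 share the same 16 libraries and correlated genes, so their number cannot be set against that rate. Vehicle ad libitum 1 stood high for mt-Rnr1 (11844 CPM), mt-Rnr2 (14196 CPM), mt-Co2 (17.3 CPM) and mt-Co3 (13.3 CPM) and low for the share of mt-Nd1 (14.7%). Vehicle ad libitum 2 stood low for the summed share of the 10 genes (17.01% of the library) and mt-Nd5 (9506 CPM) and high for the share of mt-Nd6 (2.85%). Vehicle ad libitum 4 stood high for the share of mt-Nd4 (11.4%). FAN time-restricted 11 stood low for mt-Co1 (65529 CPM) and high for the share of mt-Cytb (27.0%). Vehicle time-restricted 1 stood high for mt-Nd6 (7269 CPM), and vehicle time-restricted 4 low for the share of mt-Cytb (24.1%). FAN ad libitum 10 stood high for mt-Nd5 (5409 CPM), and FAN ad libitum 6 low for the share of mt-Co3 (0.00223%).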

How the results depend on the processing

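The calls of all 10 genes in FAN against vehicle under ad libitum feeding, in the feeding comparison in FAN and in the interaction held in the same direction under every alternative fitted. Directions of several other gene lists and of all genes turned with library size alone, as given with each list and below. The nuclear subunits, antioxidant enzymes and proximal tubule markers kept most of their calls in the same direction. Leaving out any 1 library gave medians of -2.07 to -1.62, 1.83 to 2.27 and 1.79 to 2.24. In FAN against vehicle under time-restricted feeding library size alone called 1 of 10 (main 0), and leaving out 1 library called 0 to 1, the 1 without FAN time-restricted 11 (mt-Atp6, adjusted p = 0.0455). The number of genes whose share within the 10 did not overlap was, with counts of nuclear copies added, 1 in FAN against vehicle under time-restricted feeding (main 2) and 1 in the feeding comparison in FAN (main 3); leaving out 1 library it was 2 to 4 (4 without FAN time-restricted 11) in the first, 3 to 4 in the second and 2 to 4 in vehicle kidneys (4 without vehicle ad libitum 4). The cause was not tested.

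Over all genes, library size alone called 11502 in the feeding comparison in FAN (main 5639) and 6631 in the interaction (main 1625), with 8.61% and 7.60% of them higher (main 56.4% and 84.7%), and in FAN against vehicle under ad libitum feeding 83.9% were higher (main 52.8%). The S numbers as a covariate called 4974 in FAN against vehicle under time-restricted feeding (main 7719), with a median of the 10 genes of -0.09 (main 0.23). The replicate block called 10, 0 and 10 of the 10 genes in the feeding comparison in FAN, in vehicle and in the interaction. Over all genes it called 3400, 0 and 877. Same-numbered libraries deviated together with r of -0.25 to 0.18. So weak an r cannot exclude pairing, and whether the numbers pair is not known. No paired analysis was possible because FAN and vehicle columns share no numbers, for FAN against vehicle. Leaving out FAN ad libitum 6 and 7 (3127 genes in the feeding comparison) and S numbers of 300 and above alone (2129) were chosen after seeing the data. The comparison within low S numbers was not run where FAN time-restricted has 1 library.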
